A study of Mus musculus with 4 samples.

Results

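Dclk1, Avil, Vil1, Espn, Sh2d6 and Sh2d7 are 6 genes of the cytoskeleton and signalling scaffold of the tuft cell, taken by name, and all 6 were measured among 32288 features. The data are UMI counts (counts of single mRNA molecules) from single pancreatic cells of 4 mice. All 4 carried Ptf1aCre-ERTM;ROSAYFP/+ on a CD-1 background, in which tamoxifen switches on EYFP in acinar cells that express Ptf1a, and all were 10 weeks old when injury was induced. They received tamoxifen at 5 mg per day by oral gavage and were then injected with caerulein, a secretagogue that inflames the pancreas. Injury lasted 2 weeks in 2 of the mice and 4 weeks in the other 2. EYFP-positive cells were sorted to enrich labelled acinar cells and their progeny. Cells with B cell genes were also present among those that the authors' labels gave no type. The sort alone thus does not set the origin of a cell. Cre, reporter, tamoxifen and caerulein were shared by both groups, and uninjured mice were not analysed here.

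Tuft cells are rare chemosensory cells of epithelia. They carry a tuft of long, blunt microvilli whose actin cores run deep into the cell beside bundles of microtubules, and they appear in the pancreas after injury. Advillin (Avil) and villin (Vil1) are actin-binding proteins of the gelsolin superfamily, and villin also builds the brush border of the intestine. Espin (Espn) cross-links actin filaments into parallel bundles. Dclk1 is a doublecortin-like kinase that binds microtubules and is widely used as a tuft cell marker. Sh2d6 and Sh2d7 hold SH2 domains, which bind phosphorylated tyrosines.

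The authors' labels placed 13362 of 21140 cells in a type and 2586 of them in a finer subtype, and 7778 cells had no type. The typed cells are the set that the authors deposited as filtered YFP+ cells, and the 7778 others are not in it. The mice gave 4715 to 6255 cells and 72459531 to 103610807 UMIs each, and 67 barcode sequences occurred in more than 1 mouse. Tuft cells numbered 83, 665, 212 and 320 in 2-week mice 1 and 2 and 4-week mice 1 and 2, the order kept for every set of 4 values below. Of these 1280 cells, 210 were labelled Tuft-1, 457 Tuft-2 and 494 Tuft-3. The labels fitted the markers: 7 tuft genes not among the 6 (Pou2f3, Trpm5, Gfi1b, Plcb2, Hpgds, Alox5ap and Ptgs1) summed to 3937 to 4804 CPM (a gene's UMIs as a share of all UMIs, scaled to a fixed total) in Tuft cells and to 7.88 to 29.1 in MucinDuctal cells. In the same Tuft cells 9 acinar markers summed to 4809.9 to 12408 CPM and 9 enteroendocrine markers to 74.8 to 5368, while the 3 mast cell and basophil markers were at 0. The part of RNA from other cells in the results was not tested.

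In GRCm38 (the mm10 assembly) the genes lie on 6 chromosomes and are all protein coding. GENCODE places Vil1 at chr1:74409376-74435559 on the plus strand, Dclk1 at chr3:55242364-55539068 (plus), Espn at chr4:152120331-152152371 (minus), Sh2d6 at chr6:72513641-72521707 (minus), Sh2d7 at chr9:54538984-54545020 (plus) and Avil at chr10:127000709-127020994 (plus). Avil overlaps Tsfm on the opposite strand by 9423 bases, Sh2d7 overlaps Cib2 by 227 bases and Vil1 overlaps Usp37 by 49. Dclk1 overlaps several predicted genes on both strands, and Espn and Sh2d6 overlap none. How the counting treated strand is not given in the sources used here, and the part of reads from these overlaps was not tested.

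The regions before the start sites of Avil, Vil1 and Sh2d7 are shown because Avil and Vil1 are relatives with unlike patterns across the cells and Sh2d7 had the largest mean step from Tuft-2 to Tuft-3. They are RefSeq sequence of GRCm38.p6, on the plus strand, and capitals mark a match to a searched motif. The 9 RefSeq start sites of the 6 genes were searched, on both strands, for ATGCAAAT (the octamer bound by POU factors, the family of the tuft cell regulator Pou2f3), for its shorter form ATGCAAA, and for TATAAA (the TATA box). The window of Avil is chr10:127000459-127000708, that of Vil1 is chr1:74409134-74409375, and that of Sh2d7 is chr9:54533873-54534122, which precedes a RefSeq start upstream of the GENCODE one.
Avil: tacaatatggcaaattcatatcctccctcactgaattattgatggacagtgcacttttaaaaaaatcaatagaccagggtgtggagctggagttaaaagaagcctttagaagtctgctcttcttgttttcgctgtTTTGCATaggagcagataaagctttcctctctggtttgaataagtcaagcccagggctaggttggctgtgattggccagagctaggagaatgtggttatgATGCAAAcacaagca
Vil1: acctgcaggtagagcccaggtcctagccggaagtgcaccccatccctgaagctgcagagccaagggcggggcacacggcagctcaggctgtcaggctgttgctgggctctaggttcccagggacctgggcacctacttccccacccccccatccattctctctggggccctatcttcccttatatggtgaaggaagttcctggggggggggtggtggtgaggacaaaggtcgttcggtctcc
Sh2d7: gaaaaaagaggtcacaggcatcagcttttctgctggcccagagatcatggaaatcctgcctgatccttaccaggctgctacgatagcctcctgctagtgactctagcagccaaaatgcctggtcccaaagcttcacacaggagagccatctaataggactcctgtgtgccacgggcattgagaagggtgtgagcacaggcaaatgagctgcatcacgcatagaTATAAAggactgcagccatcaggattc
The search covered the whole RefSeq promoter entry of each start site, which runs past the start and has the same length for all genes, while the stretches above stop at the start site or at the first annotated exon base. The full octamer was in 0 of the 9 entries, against 1.74% of 32851 mouse promoters. ATGCAAA was in the entry of Avil alone, once in each direction, 15 and 115 bases before the start. Of all promoters 4.63% held it at least once and 0.286% more than once. TATAAA was in the entry of Sh2d7 alone, 27 bases before that start, against 13.6% of promoters. A match is a description of the letters and not a binding site, and these letters being absent from an entry says nothing of the factor.

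All 6 genes had their highest level in Tuft cells. These held 83.3, 86.8, 86.9 and 84.4% of all UMIs of the 6 genes while holding 1.79, 12.9, 4.59 and 5.58% of all UMIs. Because the types were assigned to these same cells, levels across types are descriptions without a test, and in a summed type fewer expressing cells and less RNA per cell cannot be told apart. CPM is the share of a type's UMIs in a mouse, so each gene is compared with itself across types and not with the other genes.

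Avil stood at 1327, 1266, 1173 and 1307 CPM in Tuft cells (mean 1268 ± 68.4, SD, n = 4 mice). Its next type was Tuft/EEC.Progenitor, cells labelled as progenitors of tuft and enteroendocrine cells, at 98.0 ± 33.1 (n = 3 mice with at least 20 such cells). In MucinDuctal cells, the mucin and duct-like cells by their label, the Avil level was lower than in Tuft cells by a median of 257 times (111 to 412 over mice). Those cells held 38, 423, 99 and 74 Avil UMIs. Without cells that held at least 4 of the 6 genes they held 18, 170, 27 and 46, so the ratio depends in part on few cells. That split uses the counts of these genes, so a drop was built in and only its size is read. The Tuft levels did not overlap those of any other type.

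Espn, the actin bundler, stood at 987, 789, 907 and 886 CPM in Tuft cells (892 ± 81.2, n = 4). Its next type was again Tuft/EEC.Progenitor, at 47.2 ± 16.1 (n = 3), with no overlap. In MucinDuctal cells the Espn level was 12.0, 12.3, 9.91 and 8.75 CPM, and the Tuft level was higher by a median of 86.7 times (64.2 to 101).

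Vil1 was the member with the least contrast between cell types. It stood at 222, 257, 210.2 and 233 CPM in Tuft cells (231 ± 19.7, n = 4), at 32.8, 39.2, 25.4 and 30.7 in MucinDuctal cells and at 25.2, 39.1, 24.7 and 26.9 in enteroendocrine cells (EEC). The Tuft level was thus higher than the MucinDuctal level by a median of 7.18 times (6.55 to 8.26) and than the EEC level by 8.59 times (6.57 to 8.84). Tuft cells did not overlap any other type in Vil1, whereas MucinDuctal and EEC cells overlapped each other. Acinar cells held little Vil1, at 0.88, 5.07, 0.42 and 1.18 CPM.

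Dclk1, the microtubule-binding kinase, stood at 1439, 1369.9, 1666 and 1507 CPM in Tuft cells (1495 ± 127, n = 4). Its next type was Acinar/MucinDuctal, at 6.85, 58.4, 15.3 and 62.4 CPM, a spread as wide as its mean. In MucinDuctal cells Dclk1 stood at 9.50, 36.5, 9.97 and 11.3 CPM. In both types 2-week mouse 2, the mouse with the most tuft cells, was at or near the top.

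Sh2d6 stood at 996, 823, 862 and 956 CPM in Tuft cells (909 ± 80.2) and Sh2d7 at 437, 356, 423 and 459.8 (419 ± 44.4, n = 4 for both). Both had Acinar/MucinDuctal as the next type, at 22.5 ± 19.2 CPM for Sh2d6 and 10.3 ± 8.05 for Sh2d7. Over MucinDuctal cells the Tuft level was higher by a median of 332 times for Sh2d6 and 314 times for Sh2d7. In the 4 mice 2, 79, 8 and 8 MucinDuctal cells held at least 4 of the 6 genes. They held 16.8, 30.2, 26.6 and 11.3% of the UMIs of the 6 in that type. Without them the MucinDuctal level of both genes was lower in every mouse. The split uses the counts of these genes, so that direction was built in. By the shares above, these ratios depend in part on few cells. All 6 genes were higher in Tuft than in MucinDuctal cells in 4 of 4 mice, beside 51.3% of the 8777 genes at or above 10 CPM, while 25% were lower. Nothing is read from this count, since the types were drawn from the same cells.

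Below Tuft cells the order of the types was loose. For Dclk1 it ran from Acinar/MucinDuctal (35.7 ± 28.7 CPM) through Ductal-like (25.9 ± 27.0), MucinDuctal (16.8 ± 13.2), Tuft/EEC.Progenitor (15.9 ± 18.5), EEC (8.18 ± 5.05) and proliferating acinar cells (4.32 ± 4.77) to Acinar (3.26 ± 3.32), and every neighbour in that order overlapped the next. For Avil the Tuft/EEC.Progenitor level did not overlap the next type, Acinar/MucinDuctal (26.8 ± 21.7). For Vil1 the order after Tuft was Tuft/EEC.Progenitor (50.8 ± 11.3), MucinDuctal (32.0 ± 5.69), EEC (29.0 ± 6.81), Ductal-like (20.6 ± 13.0) and Acinar/MucinDuctal (19.3 ± 6.35), all overlapping, and then with no overlap proliferating acinar (2.26 ± 1.95) and Acinar cells (1.89 ± 2.14). Below Tuft cells no neighbours in the order were apart for Espn, Sh2d6 or Sh2d7.

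Acinar/MucinDuctal, the next type for Dclk1, Sh2d6 and Sh2d7, held much of its signal in a few cells in 2 mice. In 2-week mouse 2, 50 of 293 such cells held at least 4 of the 6 genes and 70.9% of the UMIs of the 6, and in 4-week mouse 2, 68 of 1012 cells held 41.5%. In the other mice 2 of 301 and 2 of 349 cells did so, with 4.52 and 9.56%. Those cells had a median of 53493 UMIs against 12105 in the others in 2-week mouse 2.

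Vil1 was spread over the EEC subtypes. It stood at 33.1 ± 3.25 CPM in EEC-Progenitor (Neurog3+), 31.8 ± 9.42 in ECL (Tac1+), 30.9 ± 8.62 in Epsilon (Ghrl+), 30.1 ± 16.0 in Delta (Sst+) and 24.5 ± 7.31 in Ppy+ cells (n = 4 mice each), and each overlapped its neighbour in that order.

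**Figure D1:**
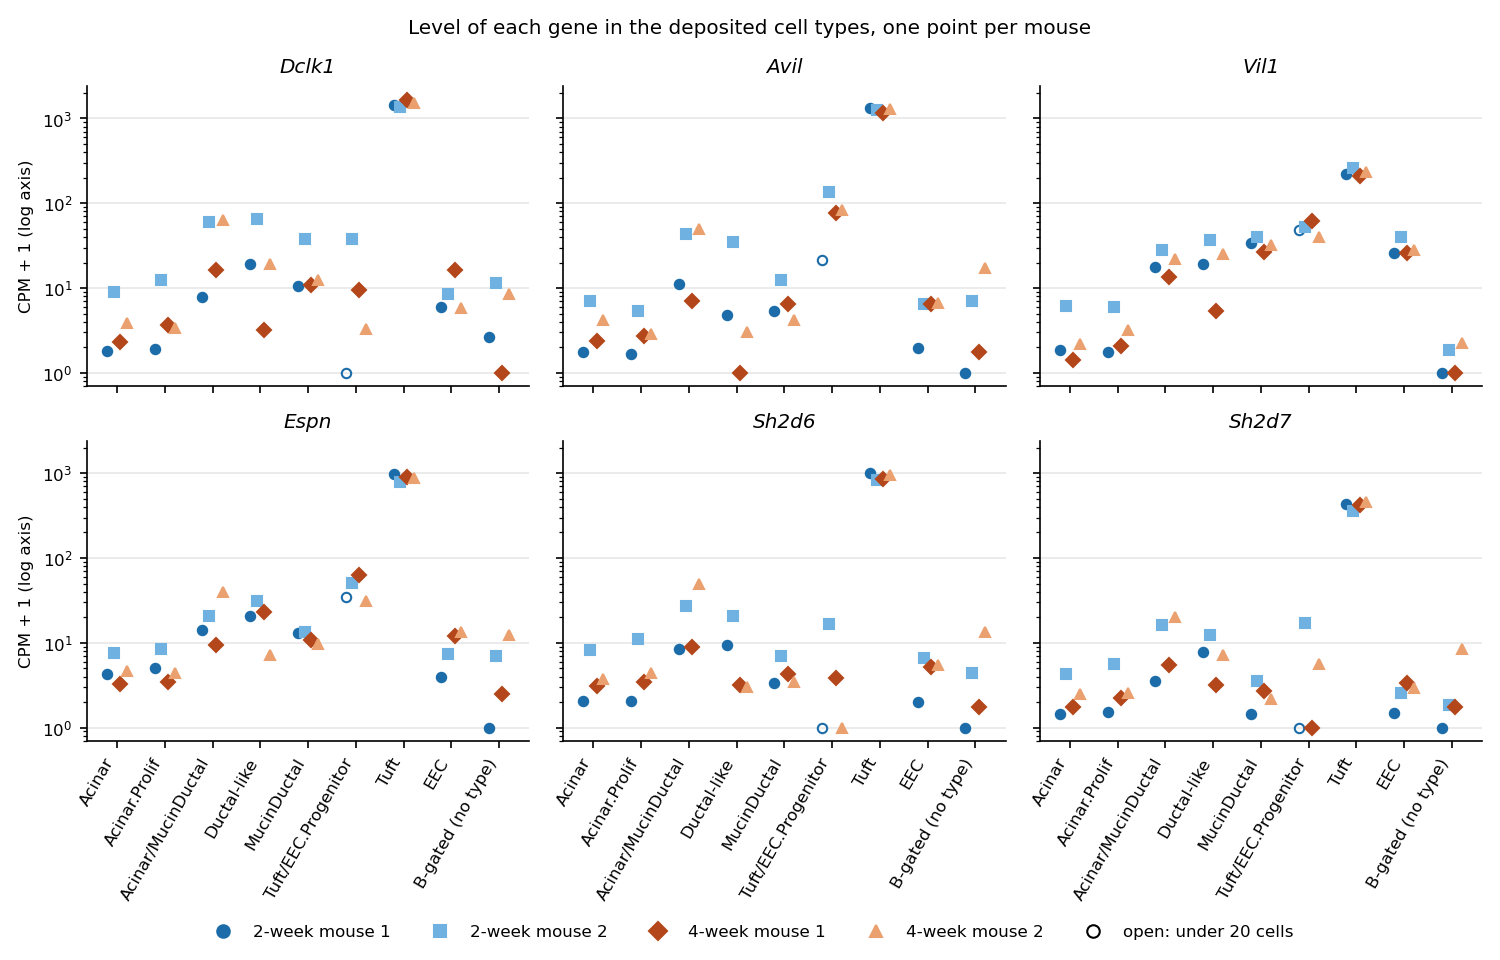
Level of each of the 6 genes (CPM + 1, log axis) in each deposited cell type and in the B cell-gated background, 1 point per mouse, with open points where a mouse had under 20 cells. Tuft cells sit above every other type for all 6 genes, and Vil1 shows the smallest gap, with MucinDuctal cells at 25.4 to 39.2 CPM.

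Free RNA gives UMIs in droplets whose cell does not express a gene, so the levels outside Tuft cells were set beside a background. This was 647 cells without a type that held at least 3 UMIs of the B cell genes Cd79a, Cd79b and Ms4a1. There Dclk1 was at 1.63, 10.3, 0 and 7.47 CPM, Avil at 0, 6.03, 0.76 and 16.2, and Espn at 0, 6.03, 1.52 and 11.2, with Sh2d6 reaching 12.4 and Sh2d7 7.47. Vil1 was at 0, 0.86, 0 and 1.24 CPM, well under its level in MucinDuctal and EEC cells in every mouse. The background of the other 5 genes was highest in 2-week mouse 2 or 4-week mouse 2. The count of 0 in 2-week mouse 1 allows up to 4.89 CPM. In MucinDuctal cells Dclk1 stood above its background in 4 of 4 mice and Espn in 3 of 4. Avil, Sh2d6 and Sh2d7 stood above it in 2 of 4: in 2-week mouse 1 they were under the level that a count of 0 allows, and in 4-week mouse 2 they were under the background. That mouse's background held 2 of 147 cells with at least 4 of the 6 genes; without these cells Sh2d6 was at 5.13 CPM, Avil at 14.1 and Sh2d7 at 6.41, still above the MucinDuctal levels of 2.40, 3.17 and 1.20. Its acinar markers summed to 129739 CPM, against 16489 to 27884 in the background of the other mice, and their part in these levels was not tested. The comparison also moved without the MucinDuctal cells that held at least 4 of the 6 genes, a split by the counts of these same genes. Sh2d6 was then above the background in no mouse, Avil in 4-week mouse 1 alone and Sh2d7 in 2-week mouse 2 alone. The background cells had a median of 2952 to 3816 UMIs by mouse, against 15110 to 21810 in MucinDuctal cells. In CPM the same number of free UMIs weighs more in a cell with fewer UMIs. A level under the background is thus not shown to be free RNA. The part of free RNA in these levels was not tested.

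With every cell thinned to 1500 UMIs and shallower cells left out (at most 2 Tuft and 14 background cells in a mouse), Avil was found in 84.5, 80.5, 83.1 and 81.9% of Tuft cells and Dclk1 in 83.9, 77.0, 86.7 and 82.6%. Espn was found in 64.2 to 74.3%, Sh2d6 in 63.0 to 74.6%, Sh2d7 in 39.9 to 49.6% and Vil1 in 26.9 to 31.0%. In the B cell-gated background no gene was found in more than 2.33% of cells. Vil1 was found in 3.47 to 5.88% of MucinDuctal and 3.91 to 5.91% of EEC cells at the same depth. At full depth (median 14809 to 20481 UMIs per Tuft cell) 1242 of 1280 Tuft cells held at least 4 of the 6 genes.

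The mixture of the 6 genes differed between cells as well as their total. In Tuft cells Avil made up 24.5, 26.0, 22.4 and 24.4% of the UMIs of the 6 genes and Vil1 4.01 to 5.28%. In MucinDuctal cells Vil1 made up 53.3, 36.3, 45.6 and 53.4%, and in EEC cells 70.8, 59.6, 39.0 and 48.0%. The Vil1 share in both types was thus above every Tuft value in every mouse. In EEC of 4-week mice 1 and 2, 2 of 295 and 1 of 290 cells held at least 4 of the 6 genes. They held 34.0 and 20.0% of the UMIs of the 6 there, and the 2-week mice had no such EEC cell. Dclk1 made up 33.8% of the MucinDuctal UMIs in 2-week mouse 2 and 15.4 to 19.7% in the other 3 mice.

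**Figure D2:**
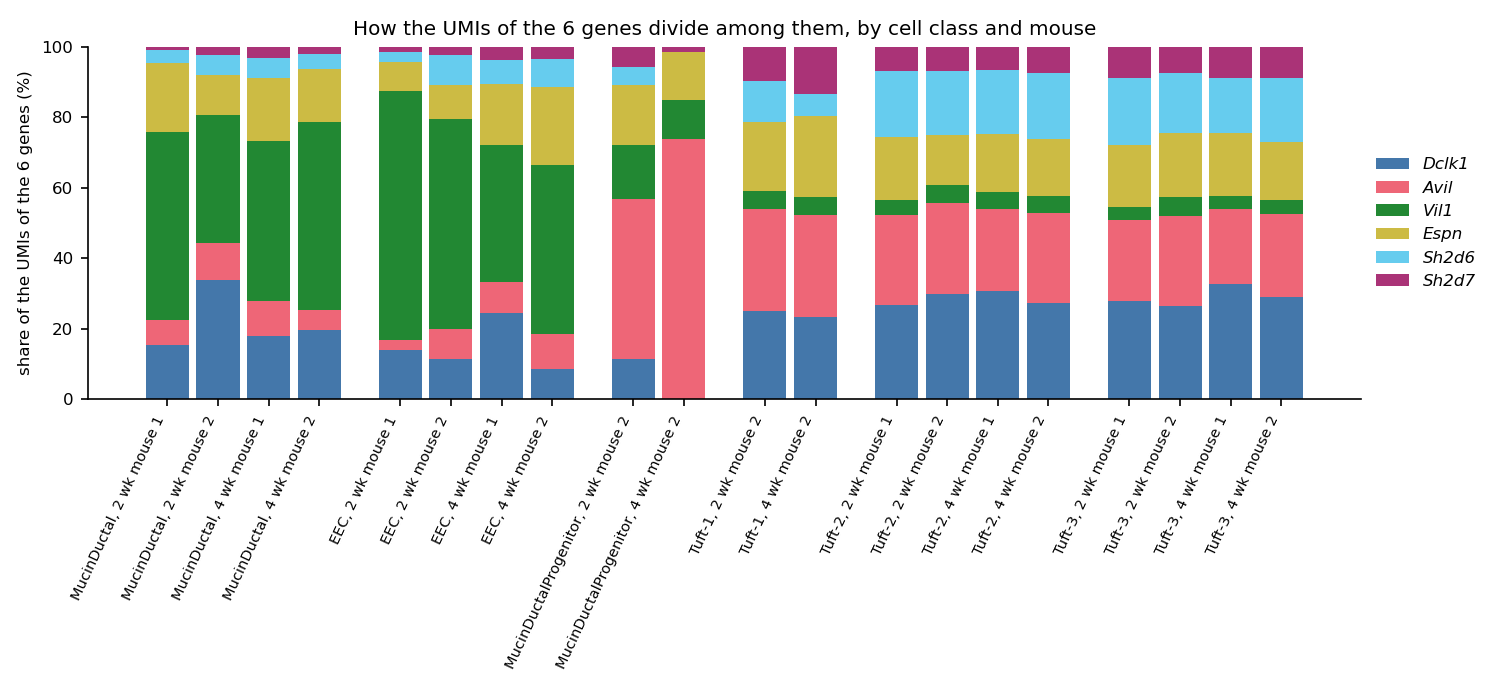
Share of the UMIs of the 6 genes (percent) that each gene takes, as 1 stacked bar per mouse in MucinDuctal, EEC, MucinDuctalProgenitor, Tuft-1, Tuft-2 and Tuft-3 cells with at least 20 cells. Vil1 takes 36.3 to 53.4% in MucinDuctal cells and only a thin band in the tuft subtypes, and Avil takes 45.3 and 74.0% in MucinDuctalProgenitor cells.

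MucinDuctalProgenitor cells, a subtype of 156 cells, had a larger share of Avil among the UMIs of the 6 genes than Tuft cells had. Only 2-week mouse 2 (118 cells) and 4-week mouse 2 (20 cells) had at least 20 of them. The other label table called 148 of them Tuft/EEC.Progenitor and 8 of them Tuft, 4 in each of these 2 mice. Avil stood there at 152 and 179 CPM, and it made up 45.3 and 74.0% of the UMIs of the 6 genes, against 22.4 to 26.0% in Tuft cells. Dclk1 stood at 38.5 and 0 CPM; 0 UMIs in 20 cells allows up to 9.95 CPM, and up to 15.0% of cells with a UMI at this depth, which does not limit the share of cells that express the gene.

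Espn stood at 57.5 and 33.2 CPM in these progenitors, Vil1 at 52.2 and 26.5, Sh2d6 at 17.2 and 0, and Sh2d7 at 18.8 and 3.32. Avil was found in 84.7% of the cells of 2-week mouse 2 (exact Clopper-Pearson 95% interval 77.0 to 90.7%) and in 75.0% of those of 4-week mouse 2 (50.9 to 91.3%). Thinned to 1500 UMIs these shares were 20.0% (13.0 to 28.2%) and 23.0% (8.66 to 49.1%), well above the background. The thinned intervals are those of the mean count over draws, rounded to whole cells. Over all 156 cells 17.3% lacked an Avil UMI, while 77.6% lacked Dclk1 and 88.5% lacked Sh2d6 and Sh2d7 alike. In both mice Avil took the largest share of the 6 genes.

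Without the 8 cells also called Tuft, an alternative added after these values were seen, Avil stood at 147 and 143 CPM, from 114 cells of 2-week mouse 2 and 16 of 4-week mouse 2. Espn stood at 53.0 and 4.22 CPM and Vil1 at 52.4 and 33.7. The Espn level of 4-week mouse 2 thus rested mostly on 4 cells.

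In 2-week mouse 2, 24 of the 118 progenitors (20.3%) held at least 4 of the 6 genes, had a median of 43568 UMIs against 18977 in the others, and carried 50.7% of the UMIs of the 6 genes. Without them, a split chosen after these values were seen, Avil stood at 161 CPM, Vil1 at 48.4 and Espn at 38.6, Dclk1 at 6.84, Sh2d6 at 2.44 and Sh2d7 at 1.47. The split uses the counts of these genes. The MucinDuctal cells of that mouse under the same split stood at 30.9 CPM for Dclk1, 2.63 for Sh2d6 and 1.16 for Sh2d7. Whether those 24 cells are doublets was not tested.

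All 6 genes were higher in Tuft-2 than in Tuft-1 cells, and 4 of them were higher again in Tuft-3 in 4 of 4 mice. The authors' subtypes come from the same cells, so the steps are descriptions without a test. Tuft-1 had 6, 166, 12 and 26 cells, so the step from it used 2-week mouse 2 and 4-week mouse 2.

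Sh2d6 made the widest step, from 301 and 120.4 CPM in Tuft-1 to 1017 and 960.5 in Tuft-2, a log2 ratio of 2.38 ± 0.88 (SD, n = 2). Dclk1 went from 637 and 456 to 1665 and 1395 (1.50 ± 0.16), Vil1 from 132 and 99.9 to 294 and 252 (1.25 ± 0.13) and Avil from 733 and 566 to 1444 and 1297 (1.09 ± 0.15). Espn and Sh2d7 made the smallest steps, 0.78 ± 0.14 and 0.57 ± 0.07. All 6 were higher in both mice, beside 37.7% of 8387 genes. With the bar lowered to 5 cells, all 6 were higher in 4 of 4 mice, with Sh2d6 at 2.64 and Sh2d7 at 0.43. The 2 added mice had only 6 and 12 Tuft-1 cells. The share of all genes was not taken at that bar, so nothing is read from this count.

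The same order held per cell with the mice pooled. In that pool 166 of 210 Tuft-1 and 269 of 457 Tuft-2 cells came from 2-week mouse 2. Tuft-1 cells had a median of 2 Sh2d6 UMIs against 19 in Tuft-2, 7.5 Dclk1 UMIs against 29, and 11 Avil UMIs against 26. Avil and Espn were nonetheless found in nearly every Tuft-1 cell: 0.476% of the 210 cells lacked Avil and 1.90% lacked Espn, while 11.0% lacked Sh2d7, 21.4% Dclk1, 23.8% Vil1 and 26.7% Sh2d6. All 6 genes together were found in 114 of 210 Tuft-1, 435 of 457 Tuft-2 and 467 of 494 Tuft-3 cells. With cells thinned to 1500 UMIs, at least 4 of the 6 were found in 15.8, 22.1, 12.5 and 11.3% of Tuft-1 cells, in 70.0, 68.9, 62.1 and 64.2% of Tuft-2 cells and in 78.1, 77.5, 78.2 and 76.7% of Tuft-3 cells. The Tuft-1 shares of 2-week mouse 1 and 4-week mouse 1 rest on 6 and 12 cells. Sh2d6 took 11.9 and 6.17% of the UMIs of the 6 genes in the Tuft-1 cells of 2-week mouse 2 and 4-week mouse 2, and 18.2 to 18.9% in Tuft-2 cells.

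**Figure D3:**
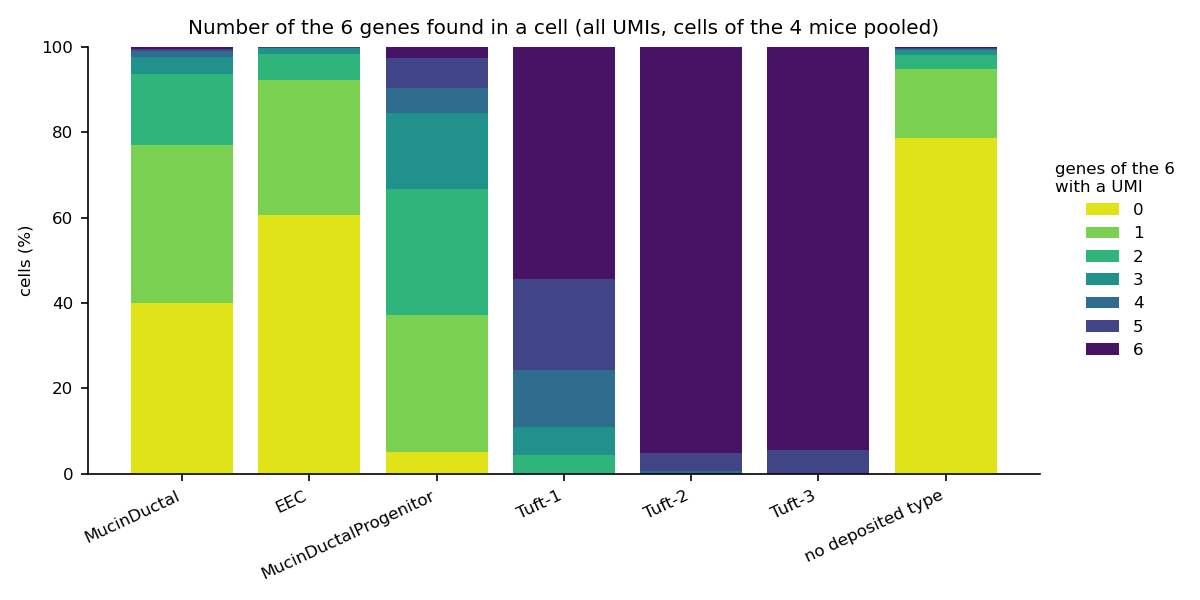
Share of cells (percent) by the number of the 6 genes with a UMI in the cell, at full depth and pooled over the 4 mice, as 1 stacked bar per cell class. Most Tuft-2 and Tuft-3 cells hold all 6 genes (435 of 457 and 467 of 494), as do 114 of 210 Tuft-1 cells, and most cells without a type hold none.

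From Tuft-2 to Tuft-3 the steps were smaller and used all 4 mice. Sh2d7 went from 368, 374, 339 and 376 CPM to 548, 453, 552 and 561 (log2 0.53 ± 0.18), and the ranges did not overlap. Espn went from 963, 793, 845 and 820.1 to 1091, 1113, 1123 and 1041 (0.36 ± 0.13), also with no overlap. Dclk1 was higher in 3 of 4 mice (0.24 ± 0.20), and Sh2d6 and Avil in 4 of 4 (0.13 ± 0.09 and 0.12 ± 0.08). Vil1 stood at 240.1, 294, 240.4 and 252 CPM in Tuft-2 and at 226, 318, 226 and 250.3 in Tuft-3 (-0.02 ± 0.09, higher in 1 of 4), a step whose sign turned with a mean over cells (0.023). Its steps per mouse, -0.09 to 0.11, overlapped those of Avil, Sh2d6 and Dclk1, and the difference between genes was not tested. Of 8172 genes, 21.6% were higher in Tuft-3 in 4 of 4 mice and 18.3% were lower. These shares compare the subtypes within each mouse. The share of all genes whose ranges did not overlap was not taken on this step.

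**Figure D4:**
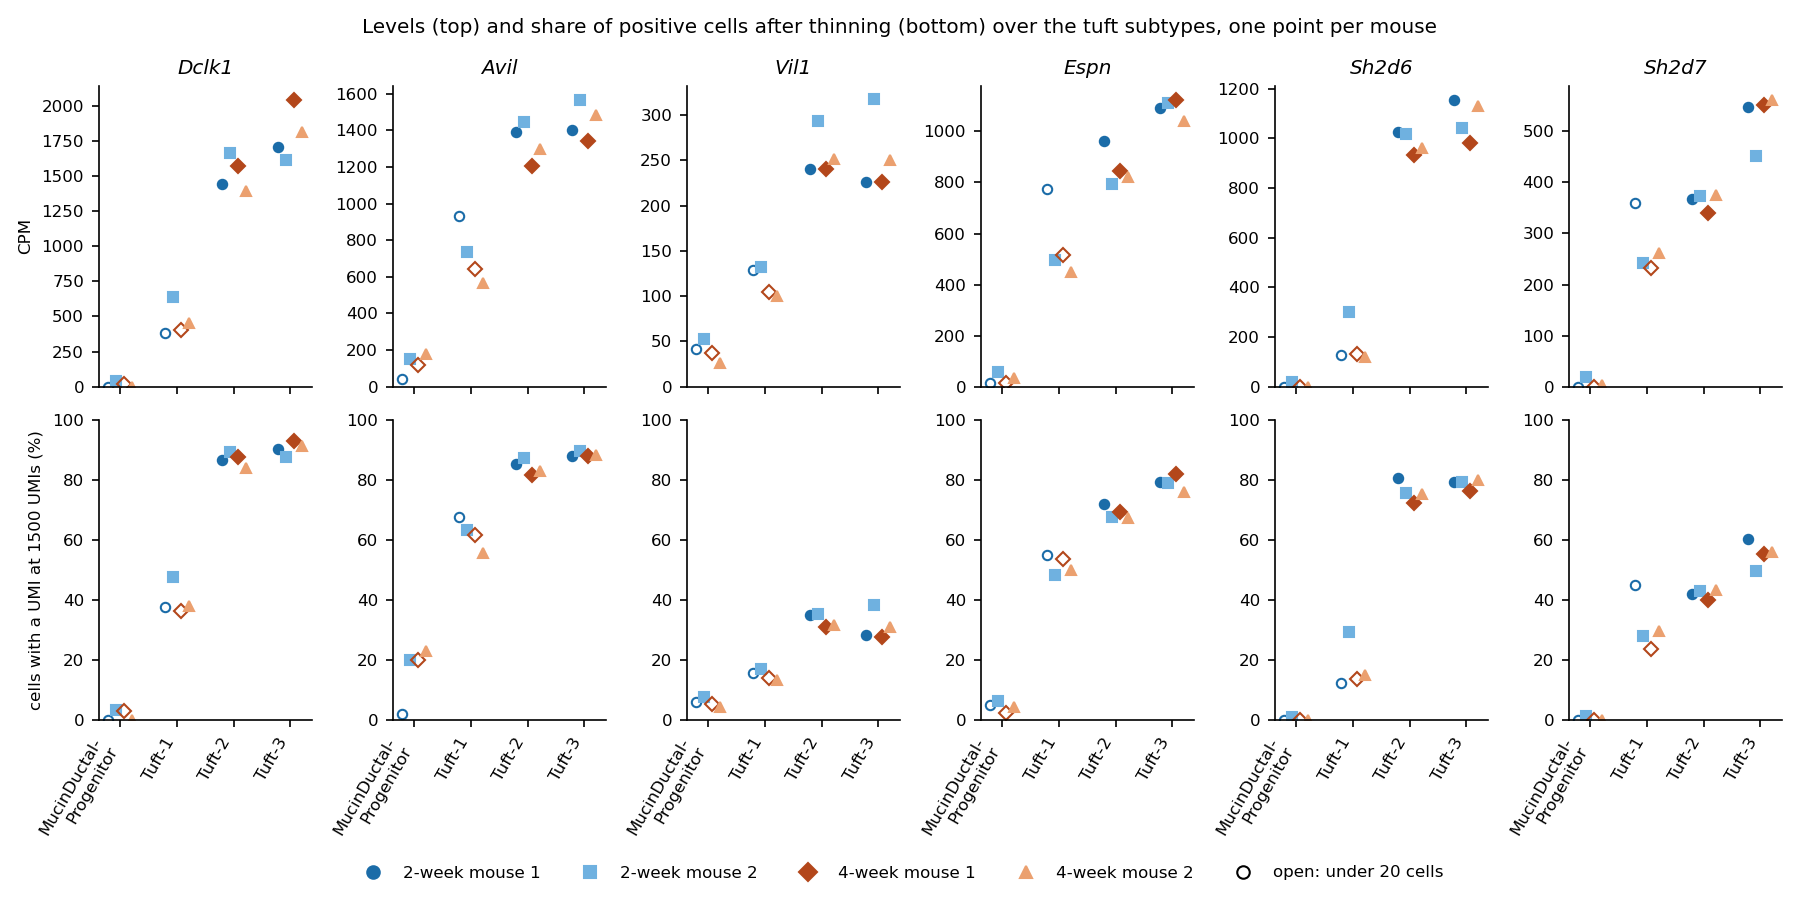
Level (CPM, top) and share of cells with a UMI at 1500 UMIs (percent, bottom) of each gene in MucinDuctalProgenitor, Tuft-1, Tuft-2 and Tuft-3 cells, 1 point per mouse, with open points where a mouse had under 20 cells. All 6 genes are higher in Tuft-2 than in Tuft-1, and from Tuft-2 to Tuft-3 Sh2d7 and Espn are higher in 4 of 4 mice and Vil1 in 1 of 4.

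The 106 Tuft cells without a subtype lay between Tuft-1 and Tuft-2 for all 6 genes by means over mice. The means used mice with at least 20 such cells, which were 3 here, 2 for Tuft-1 and 4 for Tuft-2. In the cells without a subtype Dclk1 stood at 1219 ± 55.6 CPM, Avil at 924 ± 115, Sh2d6 at 672 ± 77.8 and Espn at 587 ± 94.5, with no overlap with either subtype. Sh2d7 at 328 ± 91.7 overlapped Tuft-2, and in 4-week mouse 2 it was above Tuft-2 (434 against 376 CPM). The authors' clusters divided the Tuft cells more coarsely. Cluster 7 (744 Tuft cells) held Dclk1 at 1240 ± 64.8 CPM and Sh2d7 at 339 ± 45.3, and cluster 10 (536 Tuft cells) held them at 1779 ± 187 and 507 ± 58.1 (n = 4).

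Other cytoskeletal genes were read on the same steps from lists. Of 19 further brush-border and microvillus genes at or above 10 CPM, 14 were higher and 4 lower in Tuft than in MucinDuctal cells in 4 of 4 mice, with a median log2 ratio of 1.43 against 0.26 over all genes. The lower ones were the actin bundlers Pls1 and Pls3, the capping protein Eps8 and the actin nucleator Cobl. Of 10 tubulin genes, the 8 that reached 10 CPM were all higher in Tuft cells (median 1.92), as were 21 of 22 tuft signalling and identity genes (median 6.61). Of 5 gelsolin and villin relatives at or above 10 CPM, Capg, Flii and Svil were higher and Vill was lower, with a median of 0.14. Of 7 SH2D relatives only Sh2d4a reached 10 CPM, and it was lower in Tuft cells (log2 ratio -3.19). Of 5 espin relatives and stereocilia genes only Triobp reached 10 CPM, and it was higher (0.37). None of 3 doublecortin relatives reached 10 CPM.

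From Tuft-2 to Tuft-3 the brush-border list split: 8 of 17 genes were higher and 4 lower in 4 of 4 mice (median 0.08 against 0.03 over all genes). The higher ones included Cdhr2 and Cdhr5, protocadherins that link microvillus tips, their partner Anks4b, and the motors Myo1a and Myo7b. The lower ones were the actin bundler Pls1, the capping protein Eps8, Twf2 and Krt18. The Cdhr2 level was 448 ± 30.7 CPM in Tuft-3 and 137 ± 14.5 in Tuft-2 cells (n = 4 mice), with no overlap, after 13.4 ± 8.06 in Tuft-1 (n = 2). Cdhr5 went from 42.2 ± 5.74 to 266 ± 81.0 over the same step. Vil1, which binds the actin of the same microvilli, differed by -0.02 on that step.

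The tubulins went the other way, with all 8 of those at or above 10 CPM lower in Tuft-3 than in Tuft-2 in 4 of 4 mice (median log2 -0.98). Tubb5, a beta tubulin, had its top level in Tuft-1, 1101 ± 14.6 CPM over 2 mice, then 555 ± 56.7 in Tuft-2 cells and 139.9 ± 28.4 in Tuft-3 cells of 4 mice. Dclk1, which binds microtubules, was higher in Tuft-3 in 3 of 4 mice on the same step.

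The genes most like each member were ranked by Pearson's r of log2(CPM + 1) over 55 profiles of mouse by 15 fine cell types, which share mice and depth. For Avil they were Bmx (0.983), Gng13 (0.978), Pou2f3 (0.975), Hpgds (0.972) and Ano7 (0.972). For Sh2d7 they included Alox5 (0.980), Spib (0.974), Strip2 (0.969) and Ly6g6f (0.968), and for Sh2d6 Strip2 (0.973), Cd300lf (0.970), Alox5 (0.969), Dclk1 (0.964) and Inpp5d (0.961). The genes like Dclk1 included Sh2d6 (0.964), Sh2d7 (0.952), Alox5 (0.948) and Strip2 (0.944).

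Espn was closest to Aldh2 (0.970), Ly6g6f (0.963), Vav1 (0.952), Hmx3 (0.952) and Fyb (0.945). Vil1 kept different company: Stk38 (0.960), Atp2a3 (0.957), Trak1 (0.947), Cib1 (0.945) and Csk (0.944). Among themselves the other 5 genes correlated at 0.900 to 0.964, and Vil1 with them at 0.737 to 0.796.

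Time of injury, which the rule did not use, was tested in the 4 mice with edgeR. In Tuft cells none of the 6 genes passed the test, with log2 changes from 2 to 4 weeks of 0.17 for Dclk1 (95% interval -0.11 to 0.45), -0.07 for Avil (-0.36 to 0.23), -0.12 for Vil1 (-0.43 to 0.20), 0.01 for Espn (-0.32 to 0.34), -0.0023 for Sh2d6 (-0.34 to 0.33) and 0.15 for Sh2d7 (-0.19 to 0.50). Of all 10967 genes tested in Tuft cells 0 (0%) passed, 739 (6.74%) had an unadjusted p under 0.05, and DESeq2 called 31 (0.283%). The adjusted p of the 6 genes was 0.907 or higher (edgeR), and the intervals give the changes that 2 mice per time do not exclude. Tuft-3 made up 35 of 83, 181 of 665, 113 of 212 and 165 of 320 Tuft cells, so the subtype mix differed between mice. The part of this mix in the Tuft changes was not tested.

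No member passed in Tuft-2 cells (0 of 8645 genes called, 0%), in Tuft-3 cells (11 of 9648, 0.114%), in EEC (0 of 11869, 0%) or in MucinDuctal cells (0 of 13463, 0%). An unadjusted p under 0.05 held for 338, 655, 478 and 726 genes in these 4 (3.91, 6.79, 4.03 and 5.39%), and DESeq2 called 0, 19, 13 and 40 (0, 0.343, 0.11 and 0.297% of the genes to which it gave an adjusted p, which were 5533 in Tuft-3). Among the members, Espn in EEC alone was below that unadjusted threshold. Sh2d7 was too low to be tested in EEC. Among the list genes, Gng13, a G protein subunit of taste signalling, was called in Tuft-3 cells: it rose from 473 and 313 CPM to 1347 and 1413 (log2 1.82, edgeR adjusted p = 0.00586), and DESeq2 called it too.

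The mice of the 2 times did not overlap for 1 or 2 members in each of these cell types. Each share of genes below is of all genes tested in the type. In Tuft cells Dclk1 alone did not overlap (higher at 4 weeks, 1 of 6), beside 35.5% of genes, 18.2% higher and 17.3% lower at 4 weeks. In Tuft-2 cells these were Avil and Sh2d6, both lower at 4 weeks (2 of 6), beside 32.1% of genes, 16% lower and 16.1% higher. In Tuft-3 cells these were Dclk1 and Sh2d7, both higher (2 of 6), beside 36.1% of genes, 19.7% higher and 16.3% lower. In MucinDuctal cells these were Vil1 and Espn, both lower (2 of 6), beside 39.7% of genes, 30.2% lower and 9.54% higher. In EEC it was Espn, higher at 4 weeks (1 of the 5 members tested), beside 32.5% of genes, 8.85% higher and 23.6% lower.

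Espn in EEC was the member nearest to a change with time. It stood at 2.96, 6.32, 11.0 and 12.3 CPM from 12, 32, 42 and 44 UMIs, with no overlap between times. The log2 change was 1.40 (SE 0.358, 95% interval 0.56 to 2.24; edgeR adjusted p = 0.986). DESeq2 gave an adjusted p of 0.9998. With no filter on low counts the edgeR adjusted p was 0.0338, a setting in which other genes passed in EEC too. The background in the same mice was 0 (which allows up to 4.89), 6.03, 1.52 and 11.2 CPM. It was above the EEC level in 2-week mouse 1 if taken at that limit, close to the EEC level in 2-week mouse 2 and 4-week mouse 2 and well below it in 4-week mouse 1. EEC, too, had more UMIs per cell than the background cells, so the same limit on CPM holds here.

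In the EEC-Progenitor (Neurog3+) subtype Espn stood at 11.7, 12.0, 30.8 and 32.4 CPM (8, 29, 31 and 38 UMIs), above the background in every mouse. The share of its cells with an Espn UMI overlapped between times (17.8, 8.43, 10.6 and 14.7%). The type labels called 333 of its 391 cells EEC, 57 Tuft/EEC.Progenitor and 1 Tuft. The 333 cells called EEC are also in the EEC values above, so the 2 sets of values share most of these cells and are not independent. Espn stood at 2.08, 5.21, 26.8 and 8.88 CPM in ECL cells and at 9.32, 8.58, 44.4 and 14.4 in Delta cells. The times did not overlap in either, but the share of all genes with no overlap was not taken in these subtypes. The ECL values came from 1, 5, 12 and 5 UMIs and were above the background, with its 0 taken at 4.89 CPM, in 4-week mouse 1 alone. The Delta values came from 5, 5, 14 and 5 UMIs and were above it in every mouse. In Delta cells of 4-week mouse 1 Espn stood at 3.62 without the cells that held at least 4 of the 6 genes. This split uses the counts of the same genes. The level of 3.62 was under both 2-week mice, so the times then overlapped. The times overlapped in Epsilon cells (0.54, 4.36, 4.91 and 3.35) and in Ppy+ cells (1.69, 20.4, 35.1 and 0). A difference of the time change between EEC and MucinDuctal cells, a test added after these values were seen, was 1.66 for Espn (SE 0.379), 1.70 for Avil (SE 0.491) and 1.64 for Dclk1 (SE 0.749). It was 1.01 for Sh2d6, 1.08 for Sh2d7 and 0.016 for Vil1. The edgeR adjusted p was 1 for all 6, with 0 of 13535 genes called.

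Dclk1 in MucinDuctal cells had a log2 change of -1.01 (edgeR adjusted p = 0.824), and the value rested on single mice: it was -1.62 (adjusted p = 0.0197) without 2-week mouse 1 and 0.26 without 2-week mouse 2. The difference of time changes between Tuft-3 and Tuft-2 was 0.27 for Dclk1 (SE 0.113, 95% interval 0.04 to 0.50, edgeR adjusted p = 0.580), where 23 of 9787 genes (0.235%) passed, 7.07% had an unadjusted p under 0.05, and DESeq2 called 0.0102%. Without 2-week mouse 1 it was 0.39 (edgeR adjusted p = 0.0248).

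**Figure D5:**
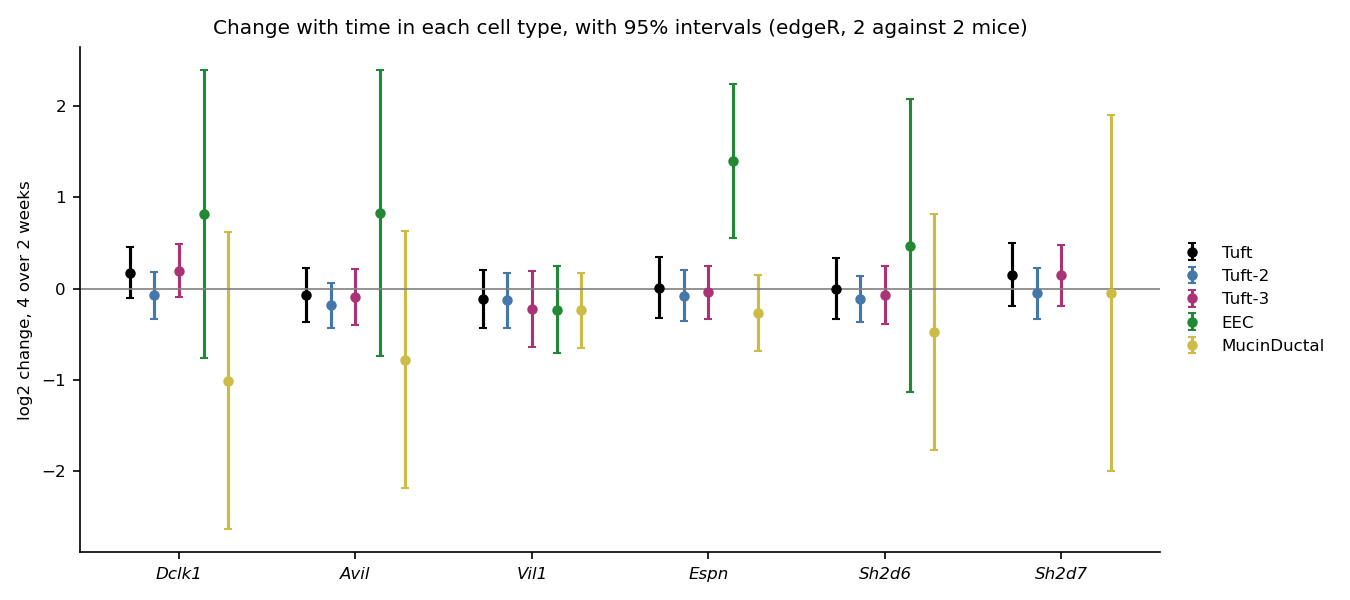
Change from 2 to 4 weeks (log2, edgeR, points with 95% intervals, 2 mice against 2) of each gene in Tuft, Tuft-2, Tuft-3, EEC and MucinDuctal cells. The Tuft intervals of all 6 genes include 0, and the EEC interval of Espn, 0.56 to 2.24, does not.

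High Dclk1 in 2 small EEC subtypes of 4-week mouse 1 came from a few cells. Delta (Sst+) cells stood at 85.6 CPM, of which 3 of 32 cells with at least 4 of the 6 genes held 87.1% of the UMIs of the 6 genes. Ppy+ cells stood at 91.0 CPM, and 2 of 45 cells held 92.1%. The type labels called 2 of the Delta and 1 of the Ppy+ cells of that mouse Tuft. Without the cells that held at least 4 of the genes Dclk1 was 0 CPM in Delta and 8.70 in Ppy+ cells. That split uses the counts of the same genes.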

How the data were processed

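Single-cell 3' RNA-seq (10x v3.1) was made from sorted EYFP-positive pancreatic cells of 4 mice, 2 per time point, grouped by their labels. The authors deposited raw UMI counts per gene and cell and 2 tables of cell type labels, and the submitters' processing notes name Cell Ranger 4.0.0, Seurat 3.2.3 and mm10. How the types were called is not given in the sources used here, and doublets were not removed here. The 6 genes, the gene lists and the comparisons were chosen with earlier results of these data known.

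Counts were summed per mouse and type and divided by the summed UMIs to give CPM. Types entered a mean with at least 20 cells in a mouse. Shares of cells with a UMI were taken at full depth and with cells thinned to 1500 UMIs (20 draws, shallower cells left out), with exact Clopper-Pearson 95% intervals. For thinned cells the interval is that of the mean count over draws, rounded to a whole number of cells. The intervals, and floors of 3 counts where a count was 0, cover counting error only. Time was tested with edgeR 4.0.16 (quasi-likelihood, robust, TMM, filterByExpr) on the summed counts, with Benjamini-Hochberg adjustment over all genes tested in a type and a threshold of 0.05. The difference between Tuft-3 and Tuft-2 had the mouse as a block. DESeq2 1.42.0, other normalizations, no filter, other depths and leaving out each mouse were alternatives. The script was tested on simulated data.

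Every member was named, as were the 5 genes with the highest r with each, over genes with at least 10 CPM in a fine type, and genes of the lists; 1 of these genes is not reported here. The main fits used all 4 mice. The mice are separate animals, so p-values measure the spread between 2 animals per time. Gene positions came from GENCODE and promoter sequences from RefSeq, both for GRCm38.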

Additional observations from a re-analysis of the deposited data

Results flagged for a closer look

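Among the 7778 cells without a deposited type, which are in no comparison other than as the B cell-gated background, 60 held at least 4 of the 6 genes. They numbered 0, 22, 13 and 25 in 2-week mice 1 and 2 and 4-week mice 1 and 2. They held 40.2% of the UMIs of the 6 genes in untyped cells, a median of 6 UMIs of the 7 tuft markers against 0 in the other untyped cells, and a median of 6362 UMIs against 4016. The result stands apart as a signal of the 6 genes in cells outside the main measurement. Whether these are tuft cells left out of the labels, doublets or cells with free RNA was not tested.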

How the results depend on the processing

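All 6 genes were higher in Tuft-2 than in Tuft-1 under the alternatives run, and the number higher in every mouse from Tuft-2 to Tuft-3, 4 in the main setting, ranged from 3 to 5. The share of all genes on these steps was taken in the main setting only. Genes called for time, beside 0 in Tuft, 0 in Tuft-2, 11 in Tuft-3, 0 in EEC and 0 in MucinDuctal cells and 23 for the difference between Tuft-3 and Tuft-2, moved with the fit. DESeq2 called 31 in Tuft, 19 in Tuft-3, 13 in EEC and 40 in MucinDuctal cells and, without the mouse block, 1 for the difference. With no filter the counts were 266, 62, 187, 74 and 6 in Tuft, Tuft-2, Tuft-3, EEC and MucinDuctal cells and 66 for the difference. A fit that was not robust gave 5 in Tuft-3. Without the 5% of cells with the most UMIs 1 gene passed in Tuft and 1 in Tuft-2. Leaving out each mouse gave 5 to 273 in Tuft, 1 to 124 in Tuft-2, 3 to 303 in Tuft-3, 0 to 366 in EEC, 0 to 191 in MucinDuctal cells and 32 to 110 for the difference, where the lone mouse of a time is assumed to vary like the others. The cause was not tested.

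Some values changed sign, among them the changes of Dclk1 and Avil in MucinDuctal cells and of Dclk1 in EEC. In Tuft cells Espn was -0.016 with upper-quartile normalization and -0.0029 without the top 5% of cells. In MucinDuctal cells Sh2d7 was 0.022 with DESeq2, and Vil1 from Tuft-2 to Tuft-3 was 0.023 as a mean over cells and 0.017 without the top 5%. Leaving out each mouse gave, in Tuft cells, -0.17 to 0.028 for Avil, -0.14 to 0.19 for Espn and -0.14 to 0.15 for Sh2d6. In Tuft-2 it gave -0.17 to 0.031 for Dclk1, -0.25 to 0.035 for Vil1, -0.22 to 0.073 for Espn and -0.15 to 0.033 for Sh2d7. In Tuft-3 it gave -0.19 to 0.0066 for Avil, -0.44 to 0.074 for Vil1 and -0.20 to 0.051 for Sh2d6. In EEC it gave -0.35 to 1.46 for Dclk1, -0.45 to 0.060 for Vil1 and -0.20 to 2.13 for Sh2d6. In MucinDuctal cells it gave -1.62 to 0.26 for Dclk1, -1.24 to 0.066 for Avil, -0.92 to 0.37 for Sh2d6 and -0.66 to 1.73 for Sh2d7. For the difference it gave -0.18 to 0.052 for Vil1, -0.14 to 0.21 for Espn and -0.043 to 0.13 for Sh2d6, and for Vil1 from Tuft-2 to Tuft-3 -0.061 to 0.0057. No paired analysis was possible because, between 2 and 4 weeks, the replicate numbers follow accession order and pair no mice. Ratios and steps between cell types and subtypes were taken within mice.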
